A study of Mus musculus with 11 samples.

Results

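The genes described here are 35 targets and regulators of the transcription factor p53, out of 55487 gene identifiers in the deposited expression table. They were taken as a list of gene symbols, with no threshold on their values but with earlier results of these data known. Counts of members called, set beside those of all genes, therefore only describe this list. The 35 genes comprise 5 genes of the p53 family and its feedback loop, 11 genes of cell cycle arrest and growth control, 13 of apoptosis, and 6 of DNA repair and metabolism. RNA was sequenced from spinal cord and from fetal fibroblasts (MEF, primary cells cultured from fetuses) of C57BL/6 mice. The mice were Morc2a p.S87L heterozygotes, in which 1 allele of a chromatin-associated ATPase, studied here in neuropathy, carries leucine in place of serine, or they were wild-type. The groups are S87L spinal cord with 3 libraries, wild-type spinal cord with 3, S87L MEF with 2 and wild-type MEF with 3. The labels give no age, sex or culture passage, and it is not stated if each library is its own animal or culture. The p-values therefore reflect how much these libraries varied, a spread that may be only technical.

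p53 is kept scarce in unstressed cells by Mdm2, an E3 ubiquitin ligase that marks it for degradation, and is held inactive by the related protein Mdm4. DNA damage and other stresses release it, mainly by changing the stability and activity of the protein, so the mRNA level of Trp53 is a poor measure of p53 activity. The released protein induces genes that stop the cell cycle, genes that promote apoptosis, and genes of repair and metabolism. It also induces Mdm2 itself, which closes a negative feedback loop. Many of these genes have other inducers as well. In neural tissue, FOXO factors, glucocorticoids and neuronal activity act on several of them.

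Values are FPKM, read counts scaled to gene length and library total, so levels can be compared between genes. Depth, as reads recovered from the steps of the FPKM values, was 19.4 to 23.53 M reads per library in S87L cord, 15.35 to 18.97 M in wild-type cord, 12.08 to 14.47 M in S87L MEF and 14.29 to 15.05 M in wild-type MEF. S87L cord replicate 3 stood apart from the other libraries of its group, with a chi-square per degree of freedom of recovered reads of 3.57 and 3.50 against them and 1.73 between them, and wild-type cord replicate 1 did so with 4.67 and 3.70, against 1.51. Without S87L replicate 3, 6 members were called higher and 1 lower in cord, and without wild-type replicate 1, 8 were higher and 3 lower. The S87L MEF pair differed at 3.93, and wild-type MEF pairs at 1.26 to 1.80. Spinal cord libraries held the defining neuronal and glial markers, with summed levels of at least 1355 FPKM for 7 neuronal genes in every library. In MEF the same 7 genes summed to 0.730 to 0.996 FPKM, and 8 fibroblast genes summed to 3414 to 3672 FPKM in S87L and 3948 to 3970 FPKM in wild-type libraries. Morc2a itself was at 4.71, 4.93 and 4.95 FPKM in S87L cord and at 5.61, 5.66 and 5.71 FPKM in wild-type cord. In MEF it was at 16.4 and 16.4 FPKM in S87L libraries and at 18.5, 18.8 and 18.3 FPKM in wild-type libraries. Morc2a was called lower in both tissues (log2 fold change -0.20, SE 0.044, limma adjusted p = 0.0269 in cord; -0.17, SE 0.04, adjusted p = 0.0421 in MEF). Both calls lie near the threshold. That in cord was kept in 1 of 6 refits with a library left out, the one without wild-type replicate 1 (adjusted p 0.0478 to 0.0940), and that in MEF in none of 5 (0.0620 to 0.161). A level of the whole gene does not read the altered codon and so does not check the genotype labels.

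p53 binds DNA as a tetramer at pairs of a decamer called the p53 half-site, and RefSeq promoter sequences (GRCm38.p6) were searched for it. The window was the 250 bases before each annotated start, and an exact match to the consensus, which reads alike on both strands, was required. Windows were available for 27 of the 35 genes. At least 1 half-site lay in the windows of 11 of these 27 genes (40.7%), against 2216 of 27025 genes (8.20%) in the whole promoter table. Most of the 27 genes were included as known p53 targets, so this share is a description of the list and a match is not a measured binding site. Only windows that held a half-site were considered for printing. Pmaip1 and Trp53inp1 rose in S87L cord and in S87L MEF, but had no match or no window. Plk2 and Mdm4, whose genotype effects differed between the tissues, also had no match or no window. The windows below are of Cdkn1a and Ccng1, which rose in both tissues, and of Sesn1 and Mdm2, which like Cdkn1a differed in genotype effect. Each is printed on the gene's strand, with half-sites in capitals: Cdkn1a at chr17:29090729-29090978 (plus strand), Ccng1 at chr11:40755287-40755536 (minus strand), Sesn1 at an alternative start at chr10:41887189-41887438 (plus strand), and Mdm2 at chr10:117710759-117711008 (minus strand).
Cdkn1a: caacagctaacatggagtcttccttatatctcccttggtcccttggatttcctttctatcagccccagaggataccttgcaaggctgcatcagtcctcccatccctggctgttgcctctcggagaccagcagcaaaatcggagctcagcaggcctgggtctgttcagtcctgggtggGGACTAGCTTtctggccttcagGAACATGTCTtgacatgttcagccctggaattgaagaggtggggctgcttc
Ccng1: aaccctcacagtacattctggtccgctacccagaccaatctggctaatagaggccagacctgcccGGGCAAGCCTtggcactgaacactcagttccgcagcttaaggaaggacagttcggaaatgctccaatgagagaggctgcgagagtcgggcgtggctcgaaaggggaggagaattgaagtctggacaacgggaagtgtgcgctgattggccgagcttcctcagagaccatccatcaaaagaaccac
Sesn1: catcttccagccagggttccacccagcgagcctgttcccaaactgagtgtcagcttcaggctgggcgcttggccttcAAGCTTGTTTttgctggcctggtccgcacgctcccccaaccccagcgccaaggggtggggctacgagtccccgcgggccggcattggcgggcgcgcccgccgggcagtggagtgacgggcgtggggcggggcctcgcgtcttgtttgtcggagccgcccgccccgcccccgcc
Mdm2: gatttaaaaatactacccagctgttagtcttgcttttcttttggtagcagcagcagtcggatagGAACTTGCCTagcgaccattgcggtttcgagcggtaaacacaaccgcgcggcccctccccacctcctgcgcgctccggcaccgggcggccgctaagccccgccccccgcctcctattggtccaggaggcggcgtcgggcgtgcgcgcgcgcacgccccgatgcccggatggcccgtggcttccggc

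The Cdkn1a window held 2 half-sites, beginning 73 and 51 bases before the start. A single half-site began 185 bases before the start of Ccng1, 173 before that of Sesn1 and 186 before that of Mdm2. The windows of Trp53, Ppm1d, Gadd45a, Bax, Ei24 and Aen also held 1 each. So did that of Polk, at an alternative start within the gene (chr13:96519188-96519437, minus strand). In the 16 other genes with windows, no match says only that these letters are not in this stretch.

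In S87L spinal cord, 8 of the 32 members tested were higher than in wild-type cord and 3 were lower. Among all 15648 genes tested, 5.17% were called higher and 7.71% lower. The 8 that rose were Cdkn1a, Ccng1, Sesn1, Sesn2, Gadd45a and Gadd45b of the arrest and growth control genes, and Pmaip1 and Trp53inp1 of the apoptosis genes. Those that fell were Mdm4, Plk2 and Dcxr. In bulk RNA such as this, fewer cells of a type and less RNA per cell cannot be told apart. The members' median log2 fold change was 0.09, against -0.02 over all genes tested. A gene was tested where its mean was at least 0.5 FPKM in the tissue, and called at an adjusted p under 0.05 with limma across all genes. Fold changes are S87L minus wild-type on the log2(FPKM + 0.5) scale, which understates changes of low genes. With median ratio scaling 1023 genes were called higher and 993 lower in cord, in place of 809 and 1207, and 9 members were higher and 3 lower.

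**Figure D1:**
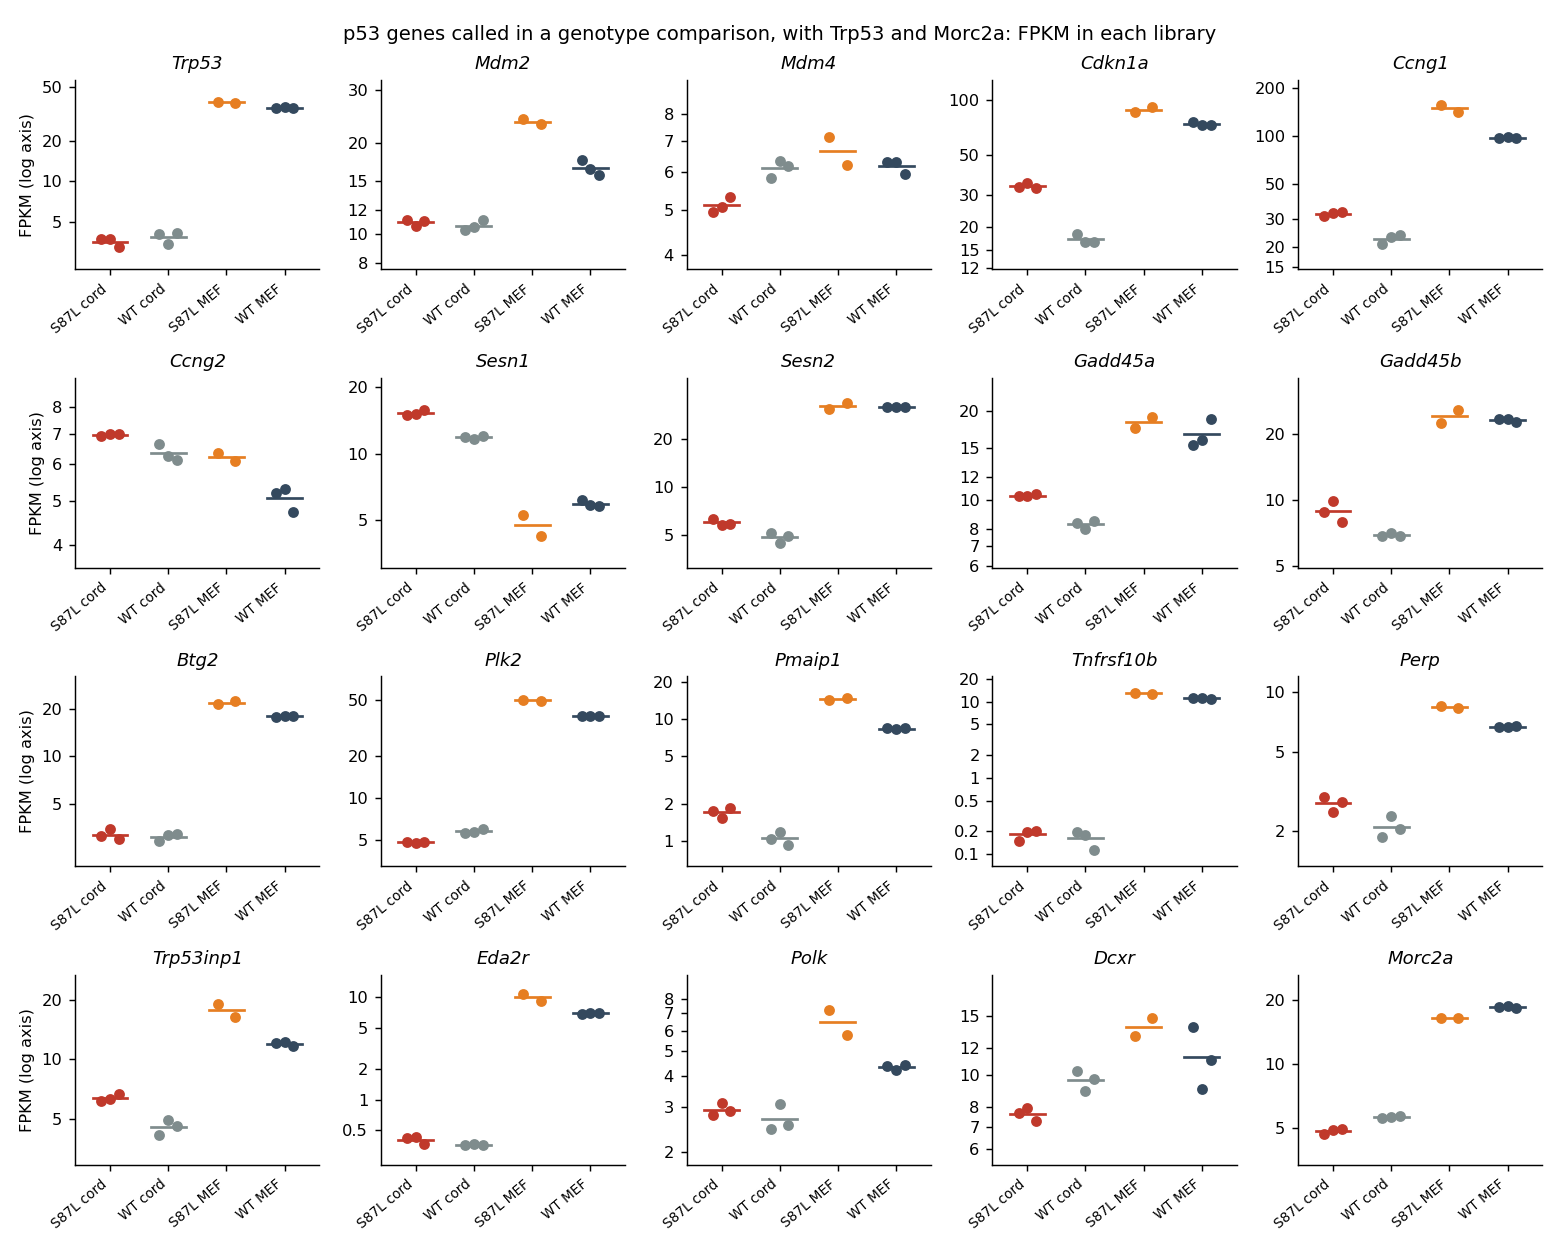
FPKM of each library on a log axis that differs by panel, for the 18 members called in cord or MEF and for Trp53 and Morc2a. Points are libraries and bars are group means (n = 3 each, n = 2 for S87L MEF). The 3 S87L cord points of Cdkn1a lie between 32.9 and 34.9 FPKM, all above the wild-type cord points.

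Cdkn1a, which encodes the cyclin-dependent kinase inhibitor p21, showed the largest change of any member in cord (ENSMUSG00000023067, chromosome 17, 29090976 to 29100727). It was at 33.3, 34.9 and 32.9 FPKM in the S87L cord libraries and at 18.3, 16.7 and 16.6 FPKM in the wild-type cord libraries. The groups were far apart, with the lowest S87L library well above the highest wild-type library. The log2 fold change was 0.95 (SE 0.049, 1.94-fold, adjusted p = 8.71e-05).

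The upstream regulators themselves did not show a comparable difference. Trp53 (chromosome 11, 69580359 to 69591873) was at 3.71, 3.7 and 3.24 FPKM in S87L cord and at 4.01, 3.41 and 4.09 FPKM in wild-type cord. The groups overlapped, with a log2 fold change of -0.10 (SE 0.081, adjusted p = 0.477). Mdm2 was at 11.1, 10.6 and 11 FPKM in S87L cord and at 10.3, 10.5 and 11.1 FPKM in wild-type cord, again with overlapping groups (0.04, SE 0.045, adjusted p = 0.654). Mdm4 was at 4.94, 5.06 and 5.31 FPKM in S87L cord and at 5.84, 6.35 and 6.2 FPKM in wild-type cord. Every S87L library was below every wild-type library for Mdm4, and the log2 fold change was -0.24 (SE 0.051, adjusted p = 0.0244). Ppm1d, a phosphatase that acts on p53 and its kinases, averaged 5.2 ± 0.119 FPKM in S87L cord and 4.85 ± 0.0772 FPKM in wild-type cord (SD, n = 3 each) and was not called (adjusted p = 0.227). Trp73, a p53 relative, rested on 6 to 10 recovered reads per S87L cord library and 11 to 15 per wild-type cord library and was below the level for testing.

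Among the arrest genes, Ccng1 encodes cyclin G1, which recruits a phosphatase to Mdm2. It was at 31.4, 32.8 and 33.1 FPKM in S87L cord and at 20.8, 23.3 and 23.7 FPKM in wild-type cord. The groups did not overlap, and the log2 fold change was 0.52 (SE 0.056, adjusted p = 0.00219). Sesn1 and Sesn2 encode sestrins, stress-inducible proteins that restrain mTORC1 signalling. Sesn1 was at 14.9, 15.1 and 15.8 FPKM in S87L cord, against 11.9, 11.7 and 12 FPKM in wild-type cord. Sesn2 was at 6.3, 5.79 and 5.84 FPKM in S87L cord, against 5.13, 4.45 and 4.87 FPKM in wild-type cord. For both genes all S87L libraries were higher, by 0.35 (SE 0.039, adjusted p = 0.00255) for Sesn1 and 0.28 (SE 0.063, adjusted p = 0.0276) for Sesn2 on the log2 scale.

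Gadd45a and Gadd45b encode small stress-induced proteins that bind cell cycle and MAP kinase regulators. Gadd45a was at 10.3, 10.3 and 10.5 FPKM in S87L cord and at 8.36, 8.01 and 8.52 FPKM in wild-type cord. Gadd45b was at 8.83, 9.92 and 7.95 FPKM in S87L cord and at 6.88, 7.06 and 6.83 FPKM in wild-type cord. The S87L libraries were higher throughout, although those of Gadd45b were more spread. The log2 fold changes were 0.31 (SE 0.042, adjusted p = 0.00524) for Gadd45a and 0.34 (SE 0.075, adjusted p = 0.0292) for Gadd45b. Gadd45g, the third gene of the family, averaged 21.7 ± 1.6 FPKM in S87L cord and 18.0 ± 2.08 FPKM in wild-type cord (SD, n = 3 each), with overlapping groups (adjusted p = 0.0894).

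Plk2, a polo-like kinase that takes part in centriole duplication and is regulated by activity in neurons, went the other way. Its level was 4.79, 4.74 and 4.82 FPKM in S87L cord and 5.55, 5.67 and 6.01 FPKM in wild-type cord. The groups did not overlap, with a log2 fold change of -0.24 (SE 0.047, adjusted p = 0.0193). The 3 remaining arrest genes besides Gadd45g were not called. Ccng2, encoding cyclin G2, was at 6.93, 6.98 and 6.99 FPKM in S87L cord and at 6.66, 6.25 and 6.13 FPKM in wild-type cord, higher in every S87L library but not past the threshold (0.12, SE 0.046, adjusted p = 0.122). Btg2, an antiproliferative cofactor of mRNA deadenylation, was at 3.11, 3.47 and 2.99 FPKM in S87L cord and at 2.9, 3.18 and 3.21 FPKM in wild-type cord, with overlap (adjusted p = 0.779). Plk3 averaged 5.7 ± 0.716 FPKM in S87L cord and 6.11 ± 0.171 FPKM in wild-type cord (SD, n = 3 each), also with overlap (adjusted p = 0.489).

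Of 13 apoptosis genes, 11 were tested in cord, and Pmaip1 and Trp53inp1 were called. Pmaip1 encodes Noxa, a BH3-only protein that neutralizes the survival factor MCL1. It was at 1.75, 1.53 and 1.86 FPKM in S87L cord, on 94 to 95 recovered reads, and at 1.03, 1.19 and 0.925 FPKM in wild-type cord, on 37 to 51 reads. The groups did not overlap, and the log2 fold change was 0.52 (SE 0.097, adjusted p = 0.0161). Trp53inp1 encodes a nuclear stress protein that promotes phosphorylation of p53 and autophagy. It was at 6.2, 6.33 and 6.7 FPKM in S87L cord and at 4.14, 4.95 and 4.59 FPKM in wild-type cord. All S87L libraries were higher, by 0.45 on the log2 scale (SE 0.068, adjusted p = 0.00748).

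Perp, which encodes a tetraspan membrane protein of desmosomes, was at 2.97, 2.5 and 2.8 FPKM in S87L cord and at 1.87, 2.39 and 2.06 FPKM in wild-type cord. Its groups did not overlap, but it missed the threshold (0.32, SE 0.092, adjusted p = 0.0615). The classical effectors were among the 9 apoptosis genes not called, including Bbc3 (the BH3-only protein Puma), Bax (the mitochondrial pore protein), Fas (a death receptor) and Apaf1 (the apoptosome scaffold). Their log2 fold changes were 0.11 (SE 0.151) for Bbc3, -0.11 (SE 0.095) for Bax, 0.10 (SE 0.076) for Fas and -0.11 (SE 0.08) for Apaf1. The most abundant of the uncalled genes were Phlda3, an inhibitor of AKT, with 51.0 ± 7.08 FPKM in S87L cord and 48.5 ± 3.16 FPKM in wild-type cord, and Ei24, an endoplasmic reticulum protein, with 19.5 ± 0.71 FPKM in S87L cord and 18.1 ± 0.586 FPKM in wild-type cord (SD, n = 3 each). The other uncalled genes, Zmat3 and Aen, had log2 fold changes of 0.00 (SE 0.046) and 0.02 (SE 0.084). Tnfrsf10b and Eda2r, a TRAIL death receptor and the EDA-A2 receptor, were too low in cord to test. Tnfrsf10b was at 0.149, 0.194 and 0.196 FPKM in S87L cord and at 0.192, 0.174 and 0.113 FPKM in wild-type cord. Eda2r was at 0.423, 0.426 and 0.364 FPKM in S87L cord and at 0.356, 0.367 and 0.359 FPKM in wild-type cord, both below the level for testing.

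Of the 6 repair and metabolism genes, Dcxr, which encodes a dicarbonyl and L-xylulose reductase, was called in cord. It was at 7.68, 7.97 and 7.26 FPKM in S87L cord and at 10.3, 8.92 and 9.73 FPKM in wild-type cord, lower in every S87L library (-0.32, SE 0.063, adjusted p = 0.0193). Polk, a translesion DNA polymerase, was at 2.8, 3.11 and 2.91 FPKM in S87L cord and at 2.46, 3.1 and 2.55 FPKM in wild-type cord, with overlapping groups (adjusted p = 0.457). The most abundant others were Tigar, a fructose bisphosphatase that limits glycolysis, with 12.8 ± 0.253 FPKM in S87L cord and 11.6 ± 0.497 FPKM in wild-type cord (adjusted p = 0.0913), and Rrm2b, the p53-inducible ribonucleotide reductase subunit, at 6.56 ± 0.172 FPKM in S87L cord and 6.48 ± 0.532 FPKM in wild-type cord (SD, n = 3 each, adjusted p = 0.881). Xpc and Ddb2, which recognize helix-distorting DNA lesions, had log2 fold changes of -0.01 (SE 0.065) and -0.15 (SE 0.098) and were not called. Reads of Ddb2 may be shared with Acp2 on the opposite strand, since it is not stated whether counting used the strand. Reads of Rrm2b may be shared with the pseudogene Gm3362 inside it, which lies on the same strand, so that no strand setting would separate them.

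**Figure D2:**
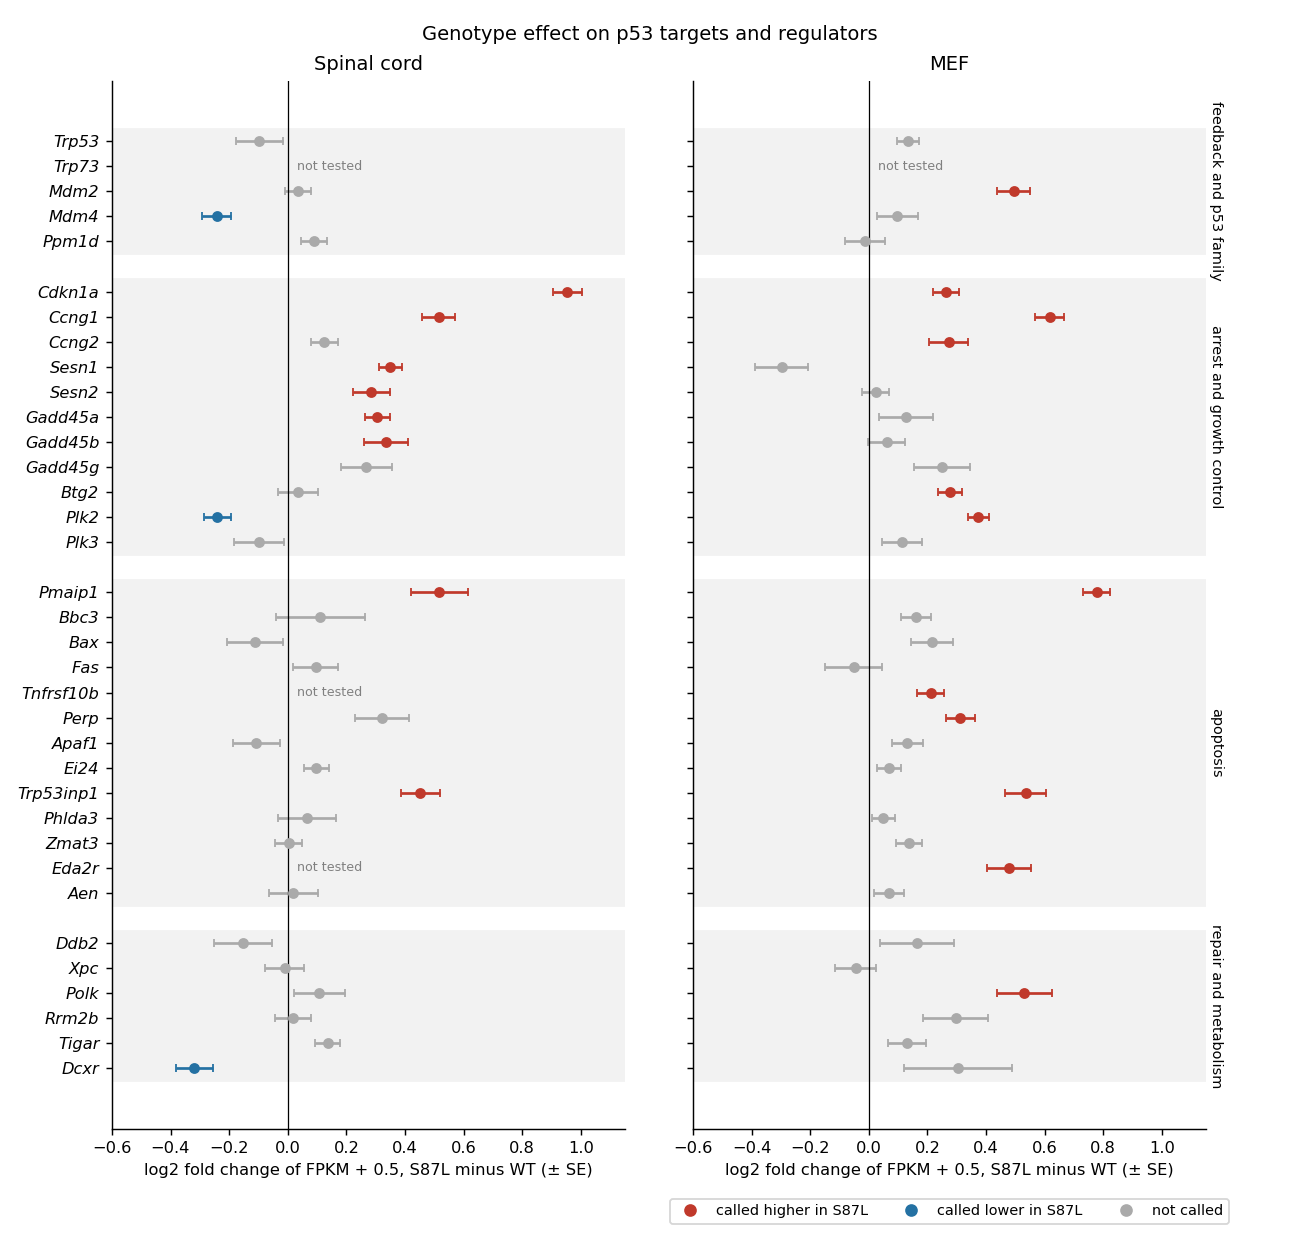
Log2 fold change of FPKM + 0.5, S87L minus wild-type, with its standard error, for each member in spinal cord (left) and MEF (right), grouped by role. Red points were called higher and blue points lower, as for Cdkn1a at 0.95 in cord and Pmaip1 at 0.78 in MEF, and no member is blue in MEF.

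Other transcripts that can move with these genes also differed between the cord groups. At an unadjusted p under 0.05 by limma, 1775 of all 15648 genes tested in cord were higher and 2771 lower. Of 12 glucocorticoid-responsive genes, 9 rose in S87L cord and none fell by limma (11 higher and 1 lower at an unadjusted p under 0.05), with a median log2 fold change of 0.56. They included Sgk1 (0.71, SE 0.031, adjusted p = 4.88e-05) and Pdk4 (0.79, SE 0.04, adjusted p = 8.71e-05), and also Tsc22d3 and Klf9. Of 14 tested genes of the integrated stress response 5 rose, among them Mthfd2 (0.43, SE 0.036, adjusted p = 7.79e-04), Nupr1 and Psat1, and also Sesn2, which is a member here too. Of 18 immediate early genes tested, Zfp36, Maff and Dusp1 rose while Fos and Egr3 fell.

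Marker levels of other cell types differed as well. Of 12 skeletal muscle markers 11 rose, with a median log2 fold change of 1.68 over the list. Their summed level was 213 to 220 FPKM in S87L cord and 142 to 156 FPKM in wild-type cord. Most of this sum was Pvalb, the marker not called, at a mean of 132 FPKM over the cord libraries (0.02, SE 0.037). The sums therefore understate the change of the other muscle markers and overstate their level. Of 7 tested markers of fibroblasts and meninges 6 rose, with sums of 46.1 to 47.6 FPKM in S87L cord and 24.8 to 25.8 FPKM in wild-type cord. Of 10 microglia markers 7 rose, with sums of 367 to 378 FPKM in S87L cord and 286 to 307 FPKM in wild-type cord. Schwann cell markers rose in 3 of 4 tested (sums of 295 to 310 FPKM in S87L cord and 250 to 266 FPKM in wild-type cord), and red blood cell markers in 3 of 5 (sums of 409 to 447 FPKM in S87L cord and 336 to 371 FPKM in wild-type cord). Most of the Schwann cell sum was Mal, at a mean of 258 FPKM over the cord libraries (0.16, SE 0.04). Neuronal markers summed to 1355 to 1387 FPKM in S87L cord and 1407 to 1426 FPKM in wild-type cord, and 2 of 7 fell. No marker of these lists was listed at 0 throughout either cord group. The part of these cell types and of glucocorticoid-responsive transcription in the p53 gene levels was not tested.

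**Figure D3:**
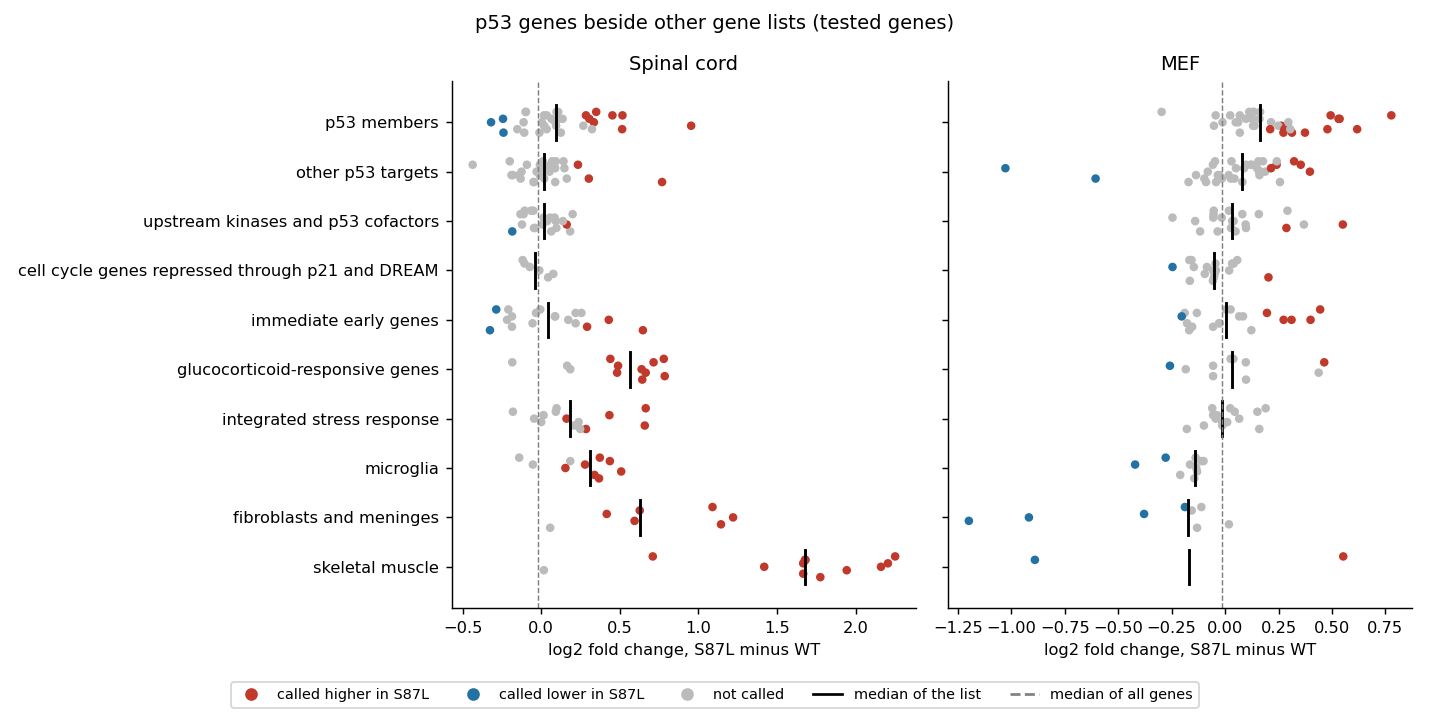
Log2 fold change, S87L minus wild-type, of every tested gene of the p53 members and of 9 other lists in spinal cord (left) and MEF (right), with axes that differ between panels. Black bars are list medians and dashed lines the median of all genes, and the glucocorticoid-responsive list has a median of 0.56 in cord and 0.03 in MEF.

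In MEF, 12 of the 34 members tested were higher in S87L libraries and none was lower, at an adjusted p under 0.05 with limma. Over all 13773 genes tested in MEF, 4.91% were called higher and 6.32% lower. At an unadjusted p under 0.05 by limma, 19 members were higher and 1, Sesn1, was lower. At that threshold 1760 of all 13773 genes were higher and 2089 lower. The members that rose were Mdm2 of the feedback genes, Cdkn1a, Ccng1, Ccng2, Btg2 and Plk2 of the arrest genes, Pmaip1, Tnfrsf10b, Perp, Trp53inp1 and Eda2r of the apoptosis genes, and Polk of the repair genes. The members' median log2 fold change was 0.16, against -0.01 over all genes tested. With all 11 libraries in 1 fit, 12 members were called higher and 1 lower, where 995 of 15811 genes were higher and 1312 lower.

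Trp53 was at 38.6 and 38.4 FPKM in S87L MEF and at 34.8, 35.5 and 34.9 FPKM in wild-type MEF. Both S87L libraries were higher, but the log2 fold change of 0.13 (SE 0.036) was not past the threshold (adjusted p = 0.0649). Mdm2 (chromosome 10, 117688875 to 117710758) was at 24.0 and 23.1 FPKM in S87L MEF and at 17.6, 16.4 and 15.7 FPKM in wild-type MEF. The groups did not overlap, and the log2 fold change was 0.49 (SE 0.057, 1.41-fold, adjusted p = 0.00474). Mdm4 was at 7.13 and 6.21 FPKM in S87L MEF and at 6.3, 6.3 and 5.96 FPKM in wild-type MEF, with overlap (adjusted p = 0.415). Ppm1d was at 5.71 and 5.02 FPKM in S87L MEF and at 5.54, 5.41 and 5.26 FPKM in wild-type MEF and was not called. Trp73 was listed at 0 in both S87L MEF libraries and in 1 wild-type library, and at 0.0132 and 0.0126 FPKM in the others.

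The arrest genes of MEF were led by Ccng1, at 157 and 142 FPKM in S87L MEF and 96.5, 98.2 and 96.7 FPKM in wild-type MEF. This gap was many times the spread within wild-type MEF, with a log2 fold change of 0.62 (SE 0.049, 1.53-fold, adjusted p = 0.00149). Cdkn1a was at 85.9 and 91.8 FPKM in S87L MEF and at 75.8, 72.8 and 73.2 FPKM in wild-type MEF. Its groups did not overlap either, but the log2 fold change was 0.26 (SE 0.044, 1.20-fold, adjusted p = 0.0168). Plk2 was at 50.2 and 49.0 FPKM in S87L MEF and at 38.3, 38.2 and 38.1 FPKM in wild-type MEF. It rose by 0.37 on the log2 scale (SE 0.036, adjusted p = 0.00270), opposite to its direction in cord.

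Btg2 was at 21.4 and 22.2 FPKM in S87L MEF and at 17.7, 18.0 and 17.9 FPKM in wild-type MEF (0.28, SE 0.041, adjusted p = 0.0108). Ccng2 was at 6.36 and 6.11 FPKM in S87L MEF and at 5.2, 5.3 and 4.73 FPKM in wild-type MEF (0.27, SE 0.066, adjusted p = 0.0470). Both genes were higher in each S87L library than in any wild-type library, and Ccng2 lay just inside the threshold. The sestrin and Gadd45 genes that rose in cord were not called here. Sesn1 was at 5.28 and 4.24 FPKM in S87L MEF and at 6.16, 5.86 and 5.79 FPKM in wild-type MEF, lower in both S87L libraries but with a wide gap between them (-0.30, SE 0.091, adjusted p = 0.0885). Sesn2 was at 31.0 and 33.5 FPKM in S87L MEF and at 31.6, 31.7 and 31.6 FPKM in wild-type MEF. Gadd45a was at 17.6 and 19.1 FPKM in S87L MEF and at 15.4, 16.0 and 18.9 FPKM in wild-type MEF. Gadd45b was at 22.4 and 25.7 FPKM in S87L MEF and at 23.2, 23.3 and 22.5 FPKM in wild-type MEF. In these 3 genes the groups overlapped. Gadd45g and Plk3 were not called either, with log2 fold changes of 0.25 (SE 0.095, adjusted p = 0.156) and 0.11 (SE 0.067, adjusted p = 0.328).

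Pmaip1 had the largest change of any member in MEF. It was at 14.4 and 15 FPKM in S87L MEF and at 8.41, 8.32 and 8.38 FPKM in wild-type MEF. The groups were widely separated, with a log2 fold change of 0.78 (SE 0.046, 1.72-fold, adjusted p = 7.28e-04). Trp53inp1 was at 19.0 and 16.3 FPKM in S87L MEF and at 12.1, 12.2 and 11.7 FPKM in wild-type MEF (0.54, SE 0.07, adjusted p = 0.00747). Perp was at 8.54 and 8.3 FPKM in S87L MEF and at 6.64, 6.65 and 6.74 FPKM in wild-type MEF (0.31, SE 0.048, adjusted p = 0.0121). In both, every S87L library was above every wild-type library.

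The 2 receptors too low for testing in cord were well expressed in MEF. Eda2r was at 10.8 and 9.16 FPKM in S87L MEF and at 6.92, 7.06 and 7.03 FPKM in wild-type MEF (0.48, SE 0.074, adjusted p = 0.0127). Tnfrsf10b was at 13.0 and 12.6 FPKM in S87L MEF and at 11.3, 11 and 10.7 FPKM in wild-type MEF (0.21, SE 0.047, adjusted p = 0.0371). Both rose without overlap, and the change of Tnfrsf10b was the smallest of the 12. Bbc3, Bax, Fas and Apaf1 were not called in MEF either, although both S87L libraries of Bbc3, Bax and Apaf1 were above every wild-type library. Their log2 fold changes were 0.16 (SE 0.052, adjusted p = 0.0988) for Bbc3, 0.21 (SE 0.072, adjusted p = 0.109) for Bax, -0.05 (SE 0.096, adjusted p = 0.768) for Fas and 0.13 (SE 0.053, adjusted p = 0.166) for Apaf1. Ei24, Phlda3, Zmat3 and Aen, also not called, lay between 0.05 (Phlda3, SE 0.039) and 0.14 (Zmat3, SE 0.045).

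Polk was the repair gene that rose, at 7.23 and 5.77 FPKM in S87L MEF and 4.36, 4.2 and 4.39 FPKM in wild-type MEF. The S87L libraries were both higher but apart from each other (0.53, SE 0.093, adjusted p = 0.0194). Dcxr was at 13.1 and 14.8 FPKM in S87L MEF and at 13.9, 9.04 and 11.1 FPKM in wild-type MEF, overlapping and not called (adjusted p = 0.356). The remaining repair genes ran between log2 fold changes of -0.04 for Xpc and 0.30 for Rrm2b.

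Further p53 targets outside the 35 were mixed. In S87L cord 3 of 32 tested rose, Ddit4 (0.77, SE 0.07, adjusted p = 0.00108), Foxo3 and Igfbp3, and none fell by limma (6 higher and 3 lower at an unadjusted p under 0.05). The counts over all genes at that threshold are given above. In S87L MEF 5 of 37 tested rose and 2 fell, among them Igfbp3 (-1.03, SE 0.037, adjusted p = 1.34e-04), Pltp (-0.61) and Slc19a2 (0.40). Their median log2 fold change was 0.01 in cord and 0.08 in MEF, nearer to the median of all genes than that of the members was. Among 21 tested upstream kinases and cofactors, Hipk2 rose and Trp53bp1 fell in cord. In MEF, Hipk2 rose (0.29, SE 0.057) together with Cdkn2a (0.55, SE 0.057, adjusted p = 0.00316), among whose products ARF sequesters Mdm2. A level of the whole gene does not tell the products of Cdkn2a apart. Of 18 cell cycle genes that p21 and the DREAM complex repress, Aurkb fell and Bub1 rose in MEF and 16 were not called, and in cord none of the 6 tested was called by limma, also at an unadjusted p under 0.05.

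In the MEF libraries, 4 of 8 fibroblast markers and 2 of 10 microglia markers fell, and the microglia list summed to 209 to 223 FPKM in S87L MEF and 249 to 251 FPKM in wild-type MEF. Neuronal and red blood cell markers were at or near 0 in both MEF groups. The glucocorticoid-responsive genes, raised in cord, had 1 of 10 higher and 1 lower in S87L MEF, and no gene of the integrated stress response was called there by limma among 15 tested (1 higher and 1 lower at an unadjusted p under 0.05).

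Cord and MEF comparisons share no library, so their calls can be set side by side. Of 32 members tested in both tissues, Cdkn1a, Ccng1, Pmaip1 and Trp53inp1 rose in both. These 4 are 50% of the 8 that rose in cord and 40% of the 10 that rose in MEF and were tested in both tissues. Over all 12389 genes tested in both, 58 rose in both, which is 8.87% of those that rose in cord and 9.67% of those that rose in MEF. The direction was shared by 21 of 32 members (65.6%) and by 53.9% of all genes. Plk2 was the 1 member called in opposite directions.

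**Figure D4:**
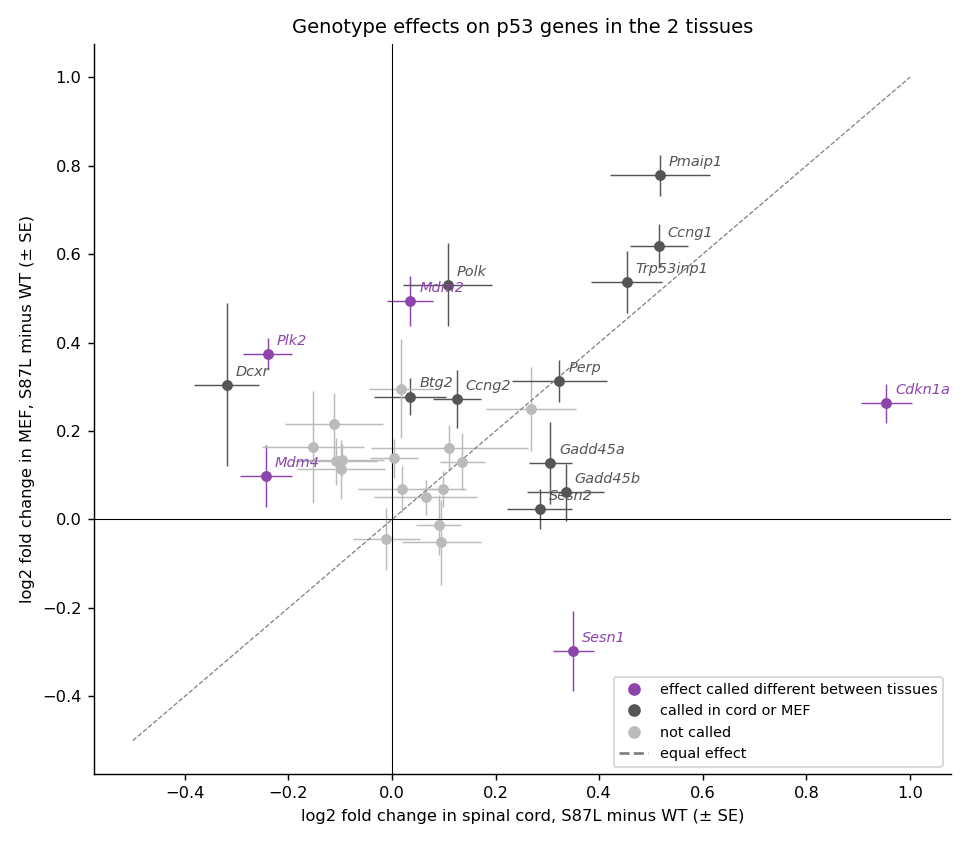
Log2 fold change (S87L minus wild-type, with standard errors) of the 32 members tested in both tissues, in spinal cord on the x axis and MEF on the y axis, with equal effects on the dashed line. Pmaip1, Ccng1 and Trp53inp1 lie near the line, and purple points such as Cdkn1a (0.95 in cord, 0.26 in MEF) had effects that differed between the tissues.

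The difference between the tissues in genotype effect was tested directly, as the effect in MEF minus that in cord, in a fit of all 11 libraries. Of 34 members tested, 4 were called higher and 2 lower, where 6.14% of 15811 genes were called higher and 6.98% lower. Mdm2 (0.46, SE 0.071, adjusted p = 0.00235), Plk2 (0.61, SE 0.054, adjusted p = 6.87e-05) and Mdm4 (0.34, SE 0.085, adjusted p = 0.0257) had the more positive effect in MEF. Cdkn1a (-0.69, SE 0.068, adjusted p = 1.47e-04) and Sesn1 (-0.65, SE 0.096, adjusted p = 0.00184) had the more positive effect in cord. Ccng1 (0.10, SE 0.08), Trp53inp1 (0.08, SE 0.104) and Pmaip1 (0.26, SE 0.107, adjusted p = 0.135) were not called different between the tissues. The fourth gene called higher was Eda2r (0.41, SE 0.096, adjusted p = 0.0193), which passed the filter on low values through MEF alone. In cord all its values were under the pseudocount of 0.5 FPKM, which understates a change there, and with a pseudocount of 0.1 its call was lost (adjusted p = 0.0858). Its difference between the tissues is therefore not read as a result.

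The members' levels also differ between wild-type cord and wild-type MEF, which sets the baseline of each comparison. Of 34 tested, 7 were higher in cord and 25 lower, against 48.1% and 40.3% of all 15811 genes. Tnfrsf10b and Eda2r passed the filter through MEF alone and so had to differ, and of the 32 members that passed it in each tissue, 7 were higher and 23 lower. The median log2 difference over the 34, cord minus MEF, was -1.04 for the members and 0.13 for all genes. Over the 32 members that passed the filter in each tissue it was -0.95. The shares and median of all genes were not restricted in this way. With quantile normalization the median of all genes moved to -0.14, with 6451 genes higher and 7614 lower in cord, and the members' split became 5 higher and 28 lower.

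Trp53 was at 4.01, 3.41 and 4.09 FPKM in wild-type cord and at 34.8, 35.5 and 34.9 FPKM in wild-type MEF (log2 difference -3.04, SE 0.065, adjusted p = 1.69e-12). No library of either tissue came near the other's range. The 11 apoptosis genes that passed the filter in each tissue were lower in cord, from Ei24 (-0.12, SE 0.039, adjusted p = 0.0146, lost without wild-type cord replicate 2 at 0.0624) to Apaf1 (-2.68, adjusted p = 1.05e-12). Tnfrsf10b averaged 0.160 FPKM in wild-type cord and lay at 11.3, 11 and 10.7 FPKM in wild-type MEF, with a log2 difference that moves with the pseudocount (-5.43 with 0.1 and -3.37 with 1). Eda2r averaged 0.361 ± 0.00564 FPKM in wild-type cord and 7.0 ± 0.0727 FPKM in wild-type MEF (SD, n = 3 each). Of the arrest genes 8 were lower in cord, including Cdkn1a (-2.07, SE 0.046, adjusted p = 2.08e-12) and Plk2 (-2.63, SE 0.036, adjusted p = 4.48e-14). Sesn1 (0.94, SE 0.064), Ccng2 (0.30, SE 0.05) and Plk3 (0.28, SE 0.078) were higher in cord, with Ccng2 at 0.13 and Plk3 no longer called (0.10, adjusted p = 0.226) under quantile normalization.

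Repair and metabolism genes were called higher in cord in 4 of 6 cases, 1 of which, Xpc, turned under quantile normalization. Rrm2b averaged 6.48 ± 0.532 FPKM in wild-type cord and 1.01 ± 0.117 FPKM in wild-type MEF, and Tigar 11.6 ± 0.497 FPKM in wild-type cord and 4.3 ± 0.0746 FPKM in wild-type MEF (SD, n = 3 each). Their log2 differences were 2.21 (SE 0.07) and 1.33 (SE 0.047), and the pseudogene within Rrm2b limits the first. Ddb2 was also higher in cord, by 0.85 (SE 0.103), with the reservation on Ddb2 given above. Xpc was called higher in cord by 0.18 (SE 0.061, adjusted p = 0.0180), but lower under quantile normalization (-0.15, adjusted p = 0.0405), and it was not called without wild-type replicate 1 of cord (0.0728) or of MEF (0.0740). Mdm4 and Dcxr were the 2 tested members not called between the tissues, although quantile normalization called both lower in cord (-0.17 and -0.28). Phlda3 was the most abundant member in both, averaging 48.5 ± 3.16 FPKM in wild-type cord and 105 ± 0.888 FPKM in wild-type MEF (SD, n = 3 each).

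**Figure D5:**
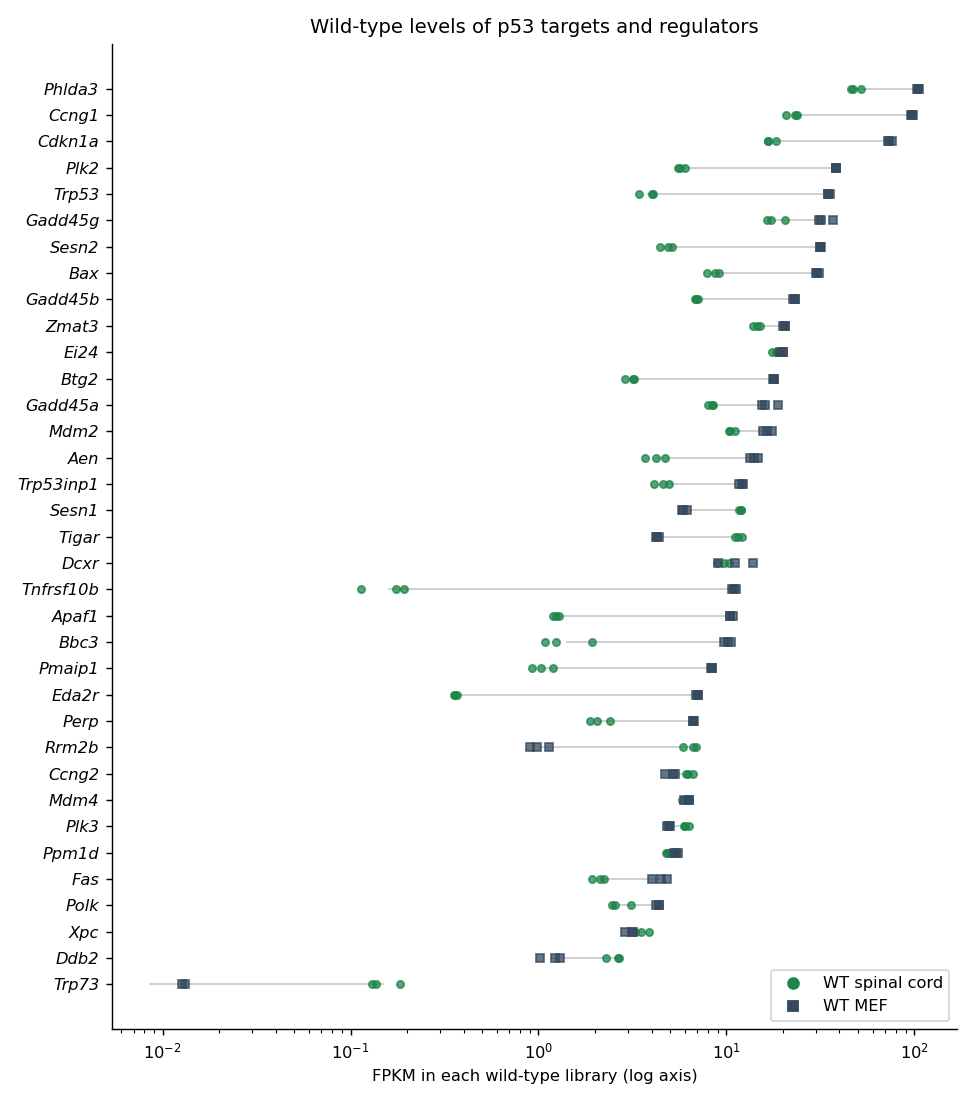
FPKM of the 35 members in each of the 3 wild-type spinal cord libraries (green circles) and 3 wild-type MEF libraries (dark squares), on a log axis, ordered by the higher mean, with libraries at 0 not drawn. Most members lie further right in MEF, as Trp53 does, while Rrm2b, Tigar and Sesn1 lie further right in cord.

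Calls differed in how much they rested on single libraries, which were left out in turn. In cord, Cdkn1a, Ccng1, Sesn1, Gadd45a and Trp53inp1 stayed called in all 6 refits. Mdm4 lost its call in 4 refits, leaving out wild-type replicates 2 and 3 and S87L replicates 1 and 2 singly (adjusted p 0.0254 to 0.0920 over the 6 refits). Sesn2 lost it in 5 refits, all but that without wild-type replicate 1 (0.0265 to 0.0962), and so did Plk2 (0.0257 to 0.0799). Gadd45b lost it in 5, all but that without S87L replicate 3 (0.0158 to 0.0894). Pmaip1 and Dcxr lost it without wild-type replicate 3 and without S87L replicate 1 or 3, with adjusted p of 0.0244 to 0.0645 for Pmaip1 and 0.0205 to 0.0652 for Dcxr.

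In MEF, Mdm2, Ccng1, Plk2, Pmaip1 and Trp53inp1 stayed called in all 5 refits. Cdkn1a, Btg2, Perp and Polk lost the call without any 1 of the wild-type replicates, with adjusted p up to 0.0810, 0.0531, 0.0586 and 0.0680. Eda2r lost it without wild-type replicate 1 or 3 (0.00815 to 0.0522), Tnfrsf10b in 4 refits, all but that without S87L replicate 2 (0.0495 to 0.124), and Ccng2 in all 5 (0.0769 to 0.146). Between the tissues, the differences of Mdm2, Cdkn1a, Sesn1 and Plk2 stayed called in all 11 refits. That of Eda2r was lost without S87L MEF replicate 1 (0.00756 to 0.0831) and that of Mdm4 in 6 refits, leaving out wild-type cord replicates 2 and 3, S87L cord replicates 1 and 2, wild-type MEF replicate 3 and S87L MEF replicate 1 singly (0.0105 to 0.0953).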

How the data were processed

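The authors deposited 1 table of FPKM values, with 55487 Ensembl identifiers as rows and the 11 libraries as columns. Per the labels' protocols, the kit was directional and the input TRIzol total RNA. Per the submitters' processing notes, HISAT2 2.2.1 and HTSeq 0.11.3 were among the tools, with Trimmomatic 0.39 and Picard 2.25.5, and the build was GRCm38. Not given in the sources used here are the annotation release and the strand setting of counting. Symbols and coordinates came from the GENCODE M21 annotation of GRCm38, which held 55227 of the identifiers and lacked 260. FPKM times gene length moved in steps of 1 read, and 98.53% to 98.75% of values per library came out within 0.05 of a whole number; these reads give depth only and no counts were tested. All pairs of libraries of a group differed beyond counting noise (chi-square per degree of freedom 1.26 to 4.67). Each library counted as 1 replicate, although this spread cannot show that the libraries come from separate animals or cultures.

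Each genotype comparison was fitted with limma 3.58.1 (R 4.3.3, with its trend and robust options) to log2(FPKM + 0.5), after removing genes whose mean over the tissue's libraries was under 0.5 FPKM. The 2 tissue contrasts used all 11 libraries. Every p adjusted by Benjamini-Hochberg is from these limma fits over all genes tested, SE is the moderated standard error, and calls are at an adjusted p under 0.05. The procedure was tested on simulated data. The 35 members and the other lists were chosen with earlier results of these data known. Values of every library are given for members called in a genotype comparison or in the difference of genotype effects and for Trp53, Mdm2, Cdkn1a and Morc2a. The others are given by range with at most 2 examples a role, those of the highest mean, and of other lists at most 4 called genes with the smallest p are named. A gene that this rule would name is not reported here. Bbc3, Fas, Apaf1, Xpc and Ddb2 were added for their roles after their values were seen. Figures were drawn with matplotlib 3.10.9.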

Additional observations from a re-analysis of the deposited data

Results flagged for a closer look

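In 6 members the genotype effect was called different between the tissues by a test of the difference itself. The call of Eda2r is not read as a result, since it passed the filter on low values through MEF alone. The difference is given here as the log2 fold change in MEF minus that in spinal cord. For Mdm2 it was 0.459, with an effect of 0.494 in MEF and 0.035 in cord. For Plk2 it was 0.614, with 0.374 in MEF and -0.24 in cord. For Mdm4 it was 0.341, with 0.098 in MEF and -0.243 in cord. For Eda2r it was 0.41, with 0.479 in MEF and no effect tested in cord, where its values lay under the pseudocount, and the call was lost with a pseudocount of 0.1 (adjusted p = 0.0858). For Cdkn1a it was -0.69, with 0.263 in MEF and 0.954 in cord. For Sesn1 it was -0.647, with -0.297 in MEF and 0.35 in cord. Single members were not checked for outlying libraries, since the groups hold 3 or 2.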

How the results depend on the processing

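In the genotype comparisons and the difference between tissues, none of the members called, nor Trp53 and Mdm2, was called in the opposite direction under any alternative run. Between the wild-type tissues, quantile normalization turned Xpc (-0.15, against 0.18), ended the call of Plk3 and called Mdm4 and Dcxr. Left-out libraries moved the number of members called between 5 and 11 in cord (5 without wild-type replicate 3 and without S87L replicate 1, against 11 with all libraries), between 5 and 12 in MEF (5, 6 and 5 without wild-type replicates 1, 2 and 3, against 12), and between 4 and 10 for the difference between tissues (10 without wild-type cord replicate 1, against 6). Same-numbered libraries correlated at 0.15, -0.05 and 0.11 in cord and -0.07 and -0.03 in MEF. In cord, S87L replicates 1 and 3 correlated best with their own number, and S87L replicate 2 did not. Deviations from means of so few libraries cannot show whether same-numbered libraries were paired. The labels do not say that a number marks a pair, and the main fits held no replicate block. With the replicate block, 11 members were called in cord, 2 (Ccng1 and Pmaip1) in MEF, 4 between genotype effects and 31 between wild-type tissues. Over all genes, the block called 53 higher and 129 lower in MEF (676 and 871 without it) and 397 and 633 for the difference (971 and 1104 without it). Without a filter on low values 327 and 461 were called in MEF, and library weights called 1331 and 1767 in cord (809 and 1207 without). Single libraries left out gave 344 to 758 higher and 494 to 879 lower in cord, 202 to 829 and 363 to 924 in MEF, and 554 to 1040 and 778 to 1221 for the difference. Apart from left-out libraries, cord calls were lost for Mdm4 (no filter, quantile), Sesn2 and Gadd45b (no filter) and Dcxr (all 11 libraries in 1 fit). In MEF, the block aside, they were lost for Cdkn1a (no trend or robust options), Ccng2 (no filter, no trend or robust options, library weights), Tnfrsf10b (these 3 and all 11 libraries in 1 fit) and Polk (no filter). For the difference they were lost for Mdm4 (no filter, block) and Eda2r (pseudocount of 0.1, block). Morc2a lost its call in cord with no filter, quantile normalization or the block, and in MEF with no filter, median ratio scaling, no trend or robust options, library weights or the block. The causes were not tested. Few reads stand behind Trp73, and in cord the minimum FPKM removed Tnfrsf10b and Eda2r.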

Other observations

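In S87L MEF, 5 of 19 tested immediate early genes rose and 1 fell by limma, among them Junb (0.40, SE 0.054, adjusted p = 0.00842), Ier3 (0.31, SE 0.045, adjusted p = 0.0104), Klf6 (0.27, SE 0.046, adjusted p = 0.0164) and Klf4 (-0.20, SE 0.041, adjusted p = 0.0278). Junb encodes an AP-1 subunit, Ier3 an early stress protein, and Klf4 and Klf6 zinc finger transcription factors. Other cell type lists were measured in S87L cord. Of 6 markers of central glia Mobp rose (0.17, SE 0.029) and Gfap fell (-0.12, SE 0.03). Of 6 endothelial markers Ly6c1 rose (0.23, SE 0.04) and Kdr fell (-0.66, SE 0.072). Of 3 tested markers of neutrophils and lymphocytes Lyz2, also expressed by macrophages, rose (0.65, SE 0.053).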
